A study of Drosophila melanogaster with 312 samples.

Results

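The 10 genes described here belong to ecdysone and juvenile hormone signalling and were measured in whole adult Drosophila: EcR, usp, Met, Eip74EF, Eip75B, Eip71CD, ftz-f1, Kr-h1, jhamt and Jhe. They were taken by their symbols in the deposited normalized counts, and all 10 were found among the 13212 genes listed there. The flies came from a single outbred population, made by crossing inbred lines with very short or very long night sleep and then mating at random for many generations. From it 6 populations were started, each from its own draw of flies, and bred apart: replicates 1 and 2 of flies selected for short night sleep, replicates 1 and 2 of flies selected for long night sleep, and replicates 1 and 2 of unselected controls, whose parents were drawn without regard to sleep. For each sex, 2 pools of 10 flies per population were sequenced at generation 0 and at generations 2 to 13, which gives 312 libraries, 156 for each sex and 52 for each sex and scheme. The flies were virgins, were held for 4 days in vials of their own sex, were scored for sleep and were frozen at midday. With 2 populations per scheme, the generations and pools of a population are not independent of each other, and generation cannot be told apart from the day of culture, freezing or library preparation.

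Ecdysone is a steroid hormone that acts through a pair of nuclear receptors, EcR and Usp, bound to each other on DNA. The bound receptor switches on early genes such as Eip74EF and Eip75B, which encode transcription factors that pass the signal on. Juvenile hormone is a sesquiterpenoid that binds the receptor Met and induces Kr-h1. In adult females both hormones act on the making of yolk proteins in the fat body and follicle cells and on their uptake by the oocyte, and the ovary itself is a source of ecdysone.

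The libraries held 31539064 to 109389826 counts on genes, with a median of 41317004. The 24 libraries of generation 11 were the deepest, with 54364791 to 109389826 counts, followed by the 24 of generation 8 with 47856345 to 60095388, and the other 264 held 31539064 to 52436755. Yolk and female germline transcripts set the sexes apart as the labels give them. Eggshell transcripts did not do so in every library. The lowest female sum of the 11 eggshell genes was 253, where the median was 81965. That lay within the male range of 183 to 1129, taken without the male pools named next. For yolk and germline transcripts the exceptions were in males. Long replicate 1 at generation 8, pool 2, held 399446 normalized counts of the 3 yolk genes, against 1768 in the other pool, and a summed level of 113157 for 7 female germline genes, against 14523. Short replicate 2 at generation 0, pool 2, had 188692 against 1438 for yolk and 47576 against 17599 for the germline genes. Short replicate 2 at generation 2, pool 1, was raised for the germline genes (38236 against 21325). Short replicate 1 at generation 5, pool 2, was raised for the yolk genes (233952 against 1136) without the germline ones. In females, long replicate 2 at generation 5, pool 1, held 917 normalized counts of accessory gland genes against 58.9 in the other pool, control replicate 2 at generation 2, pool 1, held 119 against 15.4, and control replicate 1 at generation 0, pool 1, had the lowest Kr-h1 count, 21.4 against 91.1. Results that rest on these libraries are given with and without them. Below, the pools with counts of the other sex are the named ones of long replicate 1, short replicate 2 and control replicate 2. The libraries that stand apart are these and the named pools of short replicate 1 and control replicate 1. The long replicate 2 female pool was kept in both sets. Leaving it out as well changed no count of members called for sex, selection trend, generation or yolk level. Because whole flies were used, fewer cells of a type and less RNA per cell cannot be told apart for any gene below.

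The hormone receptors were far more abundant in females. EcR (FBgn0000546; arm 2R, 6087873 to 6169087, minus strand, BDGP6.54) ranged over 2299.6, 3887 and 9502 normalized counts in females (lowest, median and highest of 156 libraries), against 365, 964 and 4589 in males. Its partner usp (FBgn0003964; X, 2038798 to 2042311, minus) ranged over 5201, 7223 and 14123 in females and 1205, 1692 and 7306 in males. The highest male value of both genes came from the long replicate 1 pool with female transcripts named above, and without the male and female pools that held counts of the other sex the highest males were at 1802 for EcR and 2632 for usp, below every female. Met (FBgn0002723; X, 11616124 to 11621280, plus), the juvenile hormone receptor, differed less, at 704, 1012 and 1512 in females and 360.1, 595 and 948 in males, and its ranges overlapped. The ratio of females to males, averaged over the 6 populations without those pools, was 4.40-fold for EcR (log2 2.14 ± 0.16, SD, n = 6), 4.36-fold for usp and 1.67-fold for Met, and the direction was the same in 78 of 78 combinations of population and generation for each. In edgeR's quasi-likelihood test over all 312 libraries the log2 difference was 2.11 ± 0.04 (SE) for EcR (adjusted p = 1.17e-139), 2.09 ± 0.02 for usp (adjusted p = 6.76e-184) and 0.75 ± 0.02 for Met (adjusted p = 1.42e-97). That test takes the libraries as independent once population and generation are fitted. Over the 15 settings run, in edgeR or with populations as replicates in limma, the largest adjusted p was 1.50e-08 for EcR, 2.13e-10 for usp and 6.30e-07 for Met.

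Among the genes that answer to ecdysone, ftz-f1 stood with the receptors. This gene (FBgn0001078; 3L, 18750607 to 18801309, minus) encodes an orphan nuclear receptor that makes tissues competent for the next ecdysone pulse, and it ranged over 4109, 6157 and 10284 in females and 519, 1407 and 6185 in males. Without the pools with counts of the other sex its male maximum was 2807, so the sexes did not overlap, and the ratio was 4.54-fold (edgeR log2 2.22 ± 0.04, adjusted p = 2.65e-146). The other 3 genes of this group were lower in females. Eip74EF (FBgn0000567; 3L, 17558672 to 17619325, minus), an ETS-domain transcription factor, had 179, 395 and 782 normalized counts in females against 548, 1120.4 and 2169.8 in males. Eip75B (FBgn0000568; 3L, 17950953 to 18064696, minus), a nuclear receptor that binds heme, had 1258, 2104 and 3940.4 in females against 1540.2, 3153 and 6211 in males. Eip71CD (FBgn0000565; 3L, 15511052 to 15513202, plus), an ecdysone-induced gene for an enzyme that repairs oxidised methionine, had 1074, 1409.7 and 2828 in females against 1565, 2478 and 4996 in males. These 3 ranges overlapped, yet the females of a population and generation were below its males in 78 of 78 combinations for Eip74EF and Eip71CD and in 77 of 78 for Eip75B. The log2 differences were -1.48 ± 0.03 for Eip74EF, -0.57 ± 0.02 for Eip75B and -0.81 ± 0.02 for Eip71CD (edgeR, SE; the largest adjusted p was 1.89e-65).

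The juvenile hormone genes other than its receptor were also lower in females. Kr-h1 (FBgn0266450; 2L, 6082603 to 6096498, plus), a zinc-finger factor induced by juvenile hormone, had 21.4, 104 and 209 normalized counts in females against 81.4, 290.2 and 703 in males. The enzyme that finishes juvenile hormone synthesis, jhamt (FBgn0028841; 2L, 16365903 to 16367039, plus), had 7.74, 35.4 and 88.3 in females against 35.7, 216 and 412 in males. Jhe (FBgn0010052; 2R, 16119793 to 16122773, plus), the esterase that breaks the hormone down, had 3.45, 22.8 and 99.6 in females against 39.0, 241 and 548 in males. The lowest male values of jhamt and Jhe were those of the same long replicate 1 pool, and without the pools with counts of the other sex the sexes did not overlap for jhamt but still did for Jhe and Kr-h1. Females held 0.167 times the male level of jhamt and 0.0965 times that of Jhe, and both were lower in females in 78 of 78 combinations. The log2 differences were -1.45 ± 0.04 for Kr-h1 (adjusted p = 1.09e-88), -2.58 ± 0.04 for jhamt (adjusted p = 7.65e-145) and -3.35 ± 0.06 for Jhe (adjusted p = 2.52e-141) in edgeR's test. Jhe and jhamt never passed 100 normalized counts in a female library, the cutoff below which a gene was left untested in females, so the tests within females below leave them out.

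**Figure D1:**
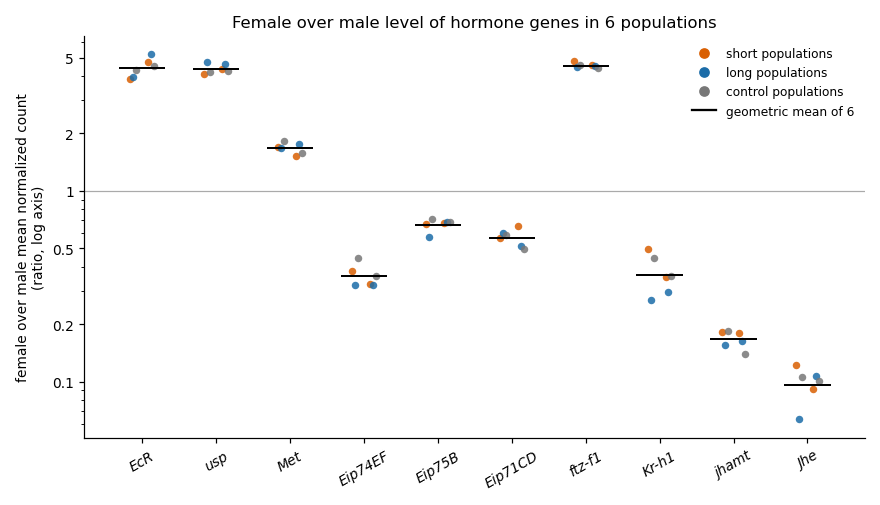
Ratio of females to males for each of the 10 genes on a log axis. Points are the 6 populations, and the short line is their geometric mean. Left out are 4 libraries with counts of the other sex. In males these are long replicate 1 at generation 8, pool 2, and short replicate 2 at generation 0, pool 2, and generation 2, pool 1. In females it is control replicate 2 at generation 2, pool 1. EcR, usp and ftz-f1 lie at 3.86-fold or above in every population, and Jhe lies at 0.122 or below.

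All 10 genes thus differed between the sexes, 4 higher and 6 lower in females. Over the 15 settings run, in edgeR or with populations as replicates in limma, the largest adjusted p of a member was 5.52e-06, for Kr-h1. The background was high: edgeR called 98.4% of 13896 genes at an adjusted p under 0.001, 37.0% higher and 61.4% lower in females, so the direction and size carry the description and the count does not. The median log2 difference was -0.69 over the members and -1.26 over all genes tested; Eip75B and Eip71CD lay above that median of all genes, and Eip74EF, Kr-h1, jhamt and Jhe lay below it. Scaling by the trimmed mean of M-values moved the median of all genes to -0.91, a shift of 0.35, and turned no member's direction. Of 40 other genes of both hormone pathways, 38 were called, 16 higher and 22 lower in females. The largest changes were in sro (8.08-fold) and phm (5.94-fold), which encode enzymes of ecdysone synthesis, in E(bx) (5.52-fold), a chromatin remodelling factor that works with the ecdysone receptor, and in Eo, for ecdysone oxidase, which in females was at 0.164 times the male level. The summed level of 7 female germline genes was 98689 to 183180 in females and 12834 to 26610 in males without the pools with counts of the other sex; the part of such differences in tissue in the members' values was not tested. Reads of usp may include some from Actn and CG4313, those of ftz-f1 some from lncRNA:CR45939 and those of Kr-h1 some from CG45075, since exons overlap there.

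Per kilobase of exon the order of the genes also differed between the sexes. In females the median level ran from usp (2378 normalized counts per kilobase), Eip71CD (1041), ftz-f1 (718) and EcR (391) through Met (199) and Eip75B (156) to Eip74EF (42.3), jhamt (33.0), Kr-h1 (19.6) and Jhe (10.9). In males Eip71CD came first (1830.4), then usp (557), Eip75B (234), jhamt (201), ftz-f1 (164), Eip74EF (120.1), Met (117), Jhe (115), EcR (97.0) and Kr-h1 (54.7). The interquartile ranges of neighbours did not overlap down to Eip74EF in females. In males the neighbours from Eip75B to EcR overlapped by the same measure, and their order is not resolved.

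The members' levels changed with generation. In both sexes the ecdysone receptor genes and ftz-f1 had their highest means at generation 11, and the juvenile hormone enzymes had theirs at generation 3. In female libraries the mean of the 6 populations for EcR was highest at generation 11, 6164 ± 1296 normalized counts (SD, n = 6), and lowest at generation 3, 3180.2 ± 356, a 1.94-fold range in which the populations did not overlap. The same peak at generation 11 was seen for usp (10092 ± 1316 against 6185 ± 587 at generation 3), for Eip75B (3011 ± 476 against 1602 ± 128 at generation 8) and for ftz-f1 (7490.1 ± 880.02 against 5125 ± 774 at generation 4) in females. In males without the libraries that stand apart, EcR was at 1347 ± 160.1 at generation 11 and 569 ± 100.3 at generation 8, usp at 2315 ± 128 and 1417 ± 95.7, Eip75B at 4489 ± 801 and 2037 ± 287, and ftz-f1 at 2151 ± 304 and 716 ± 129, the last a 3.01-fold range. With all male libraries kept, the lowest generation of EcR and ftz-f1 was generation 4 and that of usp generation 3, since the long replicate 1 pool raised generation 8. The early gene Eip74EF had its highest mean at generation 11 in both sexes, and Met peaked there in females (1195 ± 129) but at generation 3 in males (739 ± 74.5).

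The juvenile hormone enzymes were highest earlier, at generation 3. In females jhamt was highest at generation 3 (58.5 ± 12.0, SD, n = 6) and lowest at generation 12 (19.6 ± 5.95), and in males it was highest at generation 3 (309.6 ± 27.6) and lowest at generation 11 (133 ± 15.3). Jhe was also highest at generation 3, at 43.5 ± 17.1 in females and 400.3 ± 55.2 in males, and its lowest mean in females was 16.4 ± 10.6 at generation 10. In males the lowest Jhe mean over all libraries came just before the peak, 161 ± 48.4 at generation 2, and without the libraries that stand apart it was 165 ± 48.2 at generation 11. The 6 population means at these generations did not overlap for jhamt in either sex or for Jhe in males, and overlapped for Jhe in females. Over all libraries the population means at the extreme generations also overlapped for Kr-h1 in both sexes, for Met in females and for Eip71CD in males. Without the libraries that stand apart those of Eip71CD overlapped in females and not in males.

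**Figure D2:**
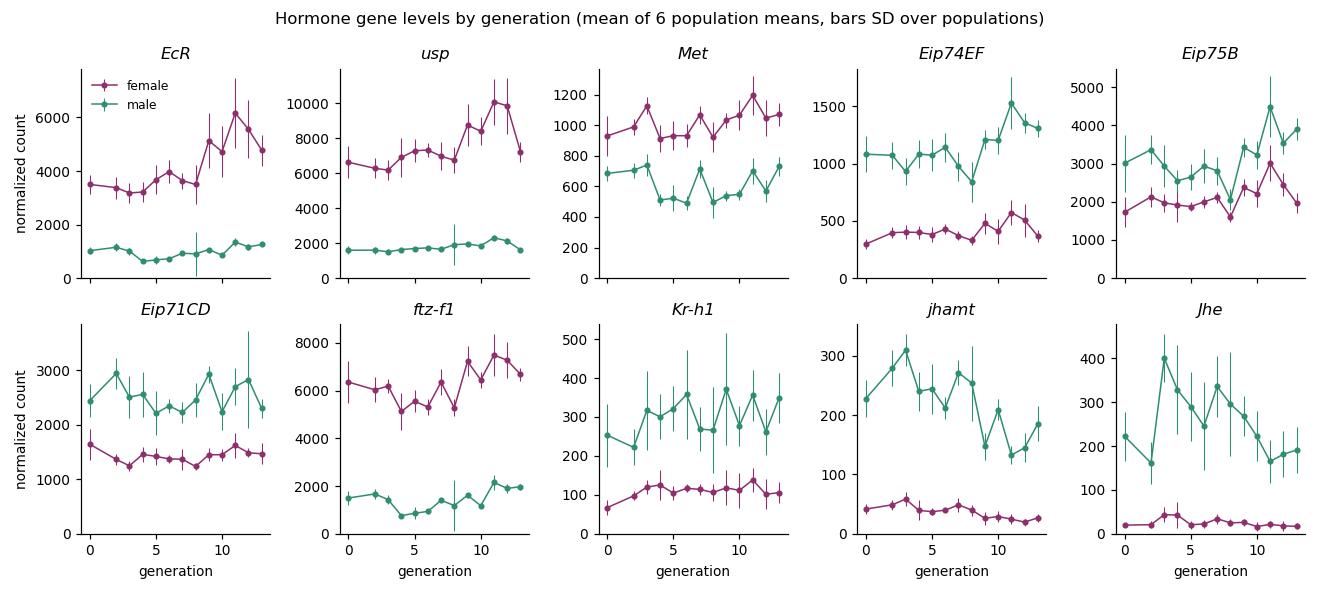
Mean normalized count of each gene at generations 0 and 2 to 13, in females and in males, over all libraries. Points are the mean of 6 population means and bars are their SD (n = 6). EcR, usp, Eip75B and ftz-f1 are highest at generation 11, and jhamt and Jhe are highest at generation 3.

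In edgeR's test of 13 generations with population intercepts, 8 of 8 members tested changed in females and 10 of 10 in males at an adjusted p under 0.001. Over all genes 92.4% of 10107 were called in females and 86.3% of 13825 in males, so a call by itself is near the background. The adjusted p was 1.00e-32 for EcR, 1.23e-29 for usp and 5.71e-25 for ftz-f1 in females, and 6.96e-26 for jhamt, 7.66e-26 for Eip75B and 7.22e-25 for ftz-f1 in males; the weakest were Kr-h1 (2.08e-05 in females and 1.36e-05 in males) and Eip71CD (8.21e-08 and 4.54e-07). Generation took 61.2% of the variance of log2 EcR in females, against 14.3% for population and 10.2% between pools, and 70.8% for ftz-f1 in males. Of the other pathway genes, 38 of 38 changed in females and 37 of 39 in males, with the widest log2 ranges for ImpE2 (8.48) and ImpL1 (5.36) in females, both named for their induction by ecdysone in imaginal discs. Generation 11, where the receptor genes peaked, also had the deepest libraries, and the part of depth in the peak was not tested. Without generation 11 the test again called 8 of 8 members in females and 10 of 10 in males. Without it and the libraries that stand apart, the highest means were at generation 12 in females for EcR (5559 ± 1081, 1.75-fold over generation 3), usp (9859 ± 1599) and ftz-f1 (7273 ± 751), and at generation 13 in males for EcR (1258 ± 49.1, 2.21-fold over generation 8) and ftz-f1 (1972 ± 119, 2.75-fold over generation 8). With 1 pool per combination left out, Kr-h1 lost its call in both sexes (adjusted p of 0.00666 to 0.0471), Eip71CD lost it in 1 of 2 such fits of each sex, and usp lost it in males without pool 1 (adjusted p = 0.0103). In females the summed yolk level was highest at generation 4 (480986 ± 60630) and lowest at generation 13 (186052 ± 67712). The female germline genes were highest at generation 11 (144430 ± 19107) and lowest at generation 4 (115903 ± 10961). Over the means of the 13 generations, the log2 yolk level in females correlated with EcR at r = -0.34, with usp at -0.16, with Met at -0.16 and with ftz-f1 at -0.41. The part of yolk or germline transcripts in the members' generation values was not tested.

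Taking generations 10 to 13 against generations 0 to 4 within each population, EcR, usp, Eip75B and ftz-f1 were higher late in 6 of 6 populations of both sexes, and jhamt was lower late in 6 of 6 of both. The ratio for EcR was 1.20 in short replicate 1 and 1.73 in short replicate 2, 1.73 and 1.68 in the long replicates and 1.72 and 1.52 in the controls, in females. For jhamt it was 0.575 and 0.662 in short, 0.599 and 0.688 in long and 0.649 and 0.643 in control males. Jhe was lower late in 6 of 6 male and 5 of 6 female populations, the exception being short replicate 1 at 1.18. Over all libraries the unselected populations thus shared the direction of the selected ones for these genes, apart from that exception. For Eip75B in females the lowest ratio over all libraries was 1.003. The late generations include generation 11, which had the deepest libraries. Without generation 11 and the libraries that stand apart, Eip75B in females was higher late in 4 populations and lower in 2 (ratios of 0.940 to 1.43). The other counts of populations given here were then the same.

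Some of the members varied together between paired pools, which share their population, sex and generation. Over the 45 pairs of members, without the libraries that stand apart, r ran between -0.59 and 0.86 in females with a median of 0.02 (25 positive), and between -0.46 and 0.77 in males with a median of 0.13 (24 positive). An r of 0.5 or more in size was found for 17.8% of these pairs in females, against 31.9% of all pairs of the genes tested, and for 33.3% in males, against 4.52%. In females without the libraries that stand apart, the difference between pools in log2 usp and log2 ftz-f1 correlated with r = 0.86 (rho = 0.83, n = 76 pool pairs, permutation p = 1e-05), EcR and usp with r = 0.80 (rho = 0.76) and EcR and ftz-f1 with r = 0.73 (rho = 0.70). The enzyme jhamt went against usp in females, with r = -0.59 (rho = -0.57). In males EcR and ftz-f1 correlated with r = 0.77 (rho = 0.66, n = 74) and Eip74EF and Eip75B with r = 0.72 (rho = 0.68). Leaving out the 2 pool pairs farthest from the median left these 6 values at 0.85, 0.77, 0.68, -0.59, 0.70 and 0.68. These 6 were chosen from 90 pairs computed after their values were seen, and their permutation p, 1e-05 for each and the smallest that 100000 permutations can give, is not adjusted for that choice.

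Other genes followed some of the members closely. Over 154 female libraries, after subtracting population means, the genes most like usp in log2 level were CG10321 (r = 0.97) and CG12155 (r = 0.97), those most like EcR were l(3)L1231 (r = 0.92) and CG10777 (r = 0.92), and lap was the most like ftz-f1 (r = 0.91). The most like Eip75B in females was kay (r = 0.89), the fly Fos protein. Over 152 male libraries Trn was the closest to EcR (r = 0.96), and elav (r = 0.97) and Trn (r = 0.97) were the closest to ftz-f1. The closest to jhamt in males was CG14818 (r = 0.84), and the highest r with Kr-h1 was 0.71, for CG12290 in females. These values describe libraries that share generations and depth.

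Selection on night sleep was tested as a slope over generations in each selected population that differed from the slope of the controls. None of the 8 members tested in females and none of the 10 in males passed an adjusted p under 0.001 in edgeR's test, where 9.9% of 10107 genes in females and 5.87% of 13825 in males did. At an unadjusted p under 0.05, EcR, usp and Kr-h1 passed in females and Eip71CD in males, against 61.6% and 26.9% of all genes; DESeq2 called 0 members and had the same 4 genes under that unadjusted level. The lowest adjusted p was that of usp in females, 0.00958. The controls' own slope was 0.07 ± 0.01 log2 per generation for EcR and 0.04 ± 0.01 for usp in females, and -0.07 ± 0.01 for jhamt and -0.07 ± 0.02 for Jhe in males (SE). Beyond it, the added slope of usp in females was -0.021 ± 0.013 and 0.024 ± 0.013 in short replicates 1 and 2 and -0.0098 ± 0.013 and 0.029 ± 0.013 in long replicates 1 and 2, so the sign went with the replicate number and not with the scheme. EcR had -0.041 ± 0.016 in short replicate 1 of females and values between 0.0018 and 0.012 in the other 3 selected populations. Kr-h1 had negative added slopes in all 4 selected female populations, -0.042 ± 0.028, -0.059 ± 0.029, -0.031 ± 0.027 and -0.085 ± 0.028, with an adjusted p of 0.0596 for the test as a whole. In males Eip71CD had -0.040 ± 0.016 and -0.010 ± 0.016 in short and -0.038 ± 0.016 and -0.0049 ± 0.016 in long replicates (adjusted p = 0.138).

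**Figure D3:**
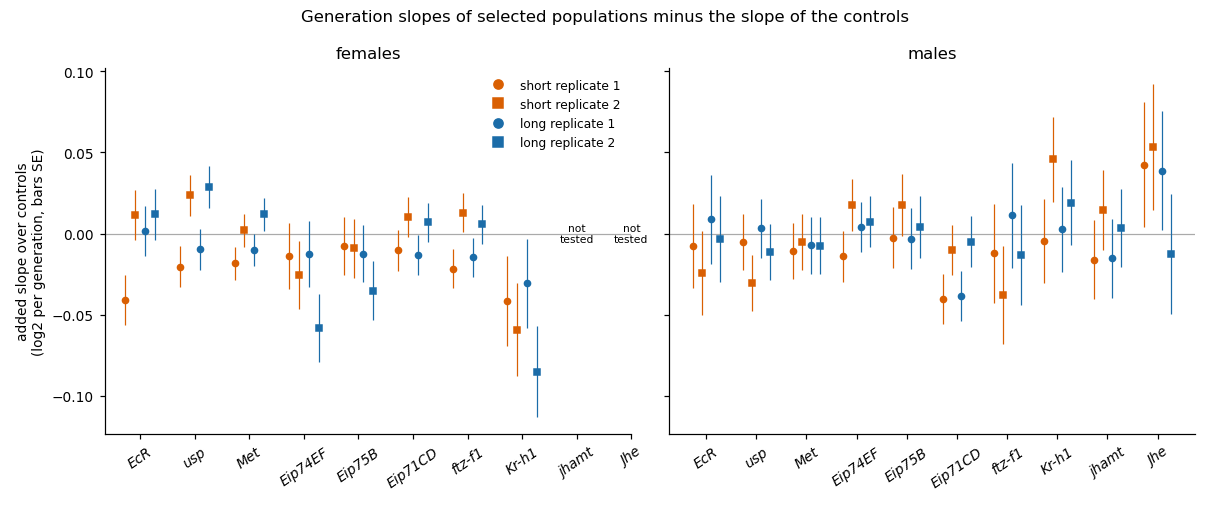
Added slope of each selected population beyond the slope of the controls, in log2 per generation, for each gene in females and in males. Points are edgeR estimates and bars are their SE; jhamt and Jhe were not tested in females. Most bars cross 0, and Kr-h1 in females lies below 0 in the 4 selected populations.

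In some generations levels of members went with the replicate number of the population across the 3 schemes, as did those of other genes. In a pair of examples chosen after the values were seen, at generation 0, usp in females had a mean of 6916, 8249.5 and 6746 normalized counts in replicate 1 of short, long and control, against 5935, 5922 and 6019.6 in replicate 2, and Eip75B in males had 3549, 3661 and 3837 against 2268, 2345 and 2399.8. The 3 populations of one number did not overlap those of the other in 15.4% to 46.2% of the generations for the members in females, against 25.7% on average over all genes tested, and in 7.69% to 30.8% in males, against 23.3%. Both examples were near the share of all genes, at 23.1% for usp in females and 23.1% for Eip75B in males. For usp in females replicate 1 lay wholly above replicate 2 in 3 of 13 generations and wholly below it in 0. For EcR in females it lay above in 0 and below in 4. With the number as a block, that is with a generation slope of its own for each number, the test called 0 members and 522 genes in females and 0 members and 500 genes in males, where 1001 and 811 were called without it. The adjusted p of usp in females was then 0.883, that of EcR 0.181, that of Kr-h1 0.218 and that of Eip71CD in males 0.377. The labels do not say what populations with the same number shared.

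Among the other pathway genes, tai and Eip55E were called in females, 2 of 38, and JhI-26 in males, 1 of 39. The coactivator of EcR and Met, tai, had an added slope of -0.088 ± 0.014 in long replicate 2 (adjusted p = 9.05e-06), against -0.028 ± 0.013 in long replicate 1. Eip55E, which encodes an enzyme of cysteine synthesis, had 0.022 ± 0.0063 in both long replicates and -0.00087 ± 0.0063 and -0.0024 ± 0.0063 in the short replicates (adjusted p = 7.77e-04). JhI-26, named for its induction by juvenile hormone, had 0.056 ± 0.012 in short replicate 2 of males and -0.018 ± 0.012 in short replicate 1 (adjusted p = 9.67e-06). Without long replicate 2 tai was not called (adjusted p = 0.224), without short replicate 2 JhI-26 was not (adjusted p = 0.294), Eip55E lost its call without any 1 of the 4 selected populations (adjusted p of 0.00144 to 0.0202) and under the trimmed mean of M-values (adjusted p = 0.00444), and with populations as replicates in limma none of these 3 was called. With the block on population number JhI-26 was not called (adjusted p = 0.0147) and tai and Eip55E were. A test of whether the added slopes differed between the sexes called 0 of 10 members, the lowest adjusted p being 0.0349 for usp, where 7.54% of 13896 genes were called, 1048, and 288 without the pools with counts of the other sex. At an unadjusted p under 0.05 usp, Kr-h1 and jhamt passed, against 42.7% of all genes.

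The late populations were then compared directly, with the counts of generations 10 to 13 summed within each of the 6 populations. No member differed between short and control, long and control or short and long in either sex at an adjusted p under 0.05 in edgeR's test, where the share of all genes called was 0.0% for 4 of the 6 contrasts, 0.00723% for long minus control males and 0.0145% for short minus long males. The block on population number gave 0 members again and, over all genes, 4 calls in place of 2 for short minus long males and 1 in place of 0 for short minus control males. At an unadjusted p under 0.05 only Eip71CD in males passed. Its late means in males were 2179 ± 413 and 2339 ± 342 in short replicates 1 and 2 (SD, n = 8 libraries), 2156 ± 207 and 2579 ± 473 in long and 2762 ± 316 and 3066 ± 986 in control, so all 4 selected populations lay below both controls. The mean of control replicate 2 included the highest male library for this gene, 4996 at generation 12, pool 2. The log2 difference was -0.32 (95% confidence interval -0.58 to -0.06, unadjusted p = 0.0252, adjusted p = 0.968) for short minus control and -0.30 (-0.56 to -0.04, unadjusted p = 0.0324, adjusted p = 1.00) for long minus control. At that unadjusted level 4.58% and 3.2% of all genes passed in the same contrasts and 7.02% in short minus long males. In females 0 members passed it, against 2.61% of all genes in short minus control, 6.59% in long minus control and 5.71% in short minus long, and DESeq2 called 0 members in all 6 contrasts.

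The intervals of the other members were wide enough to hold sizeable differences. In females EcR averaged 3897 ± 319 and 5737 ± 1067 in short, 5541 ± 1951 and 6309 ± 724 in long and 5276 ± 463 and 5081 ± 739 in control populations, and the log2 difference of short minus long was -0.28 (-0.67 to 0.11). Kr-h1 in females averaged 114 ± 22.8 and 102 ± 38.4 in short, 116 ± 26.6 and 74.2 ± 21.9 in long and 164 ± 21.8 and 115 ± 45.5 in control populations, and long minus control was -0.61 (-1.36 to 0.15, adjusted p = 0.658). Eip74EF in females had -0.49 (-1.08 to 0.10) for the same contrast. In males jhamt lay between 148 and 192 in all 6 populations and Jhe between 119 and 241, with intervals of -0.51 to 0.28 for jhamt and -0.75 to 1.02 for Jhe in short minus control. The tightest interval in females was that of ftz-f1 in short minus control, -0.19 to 0.18. The summed yolk level of late females was 329937 and 244608 in short, 221869 and 208717 in long and 389685 and 328811 in control populations; its part in the late values was not tested.

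**Figure D4:**
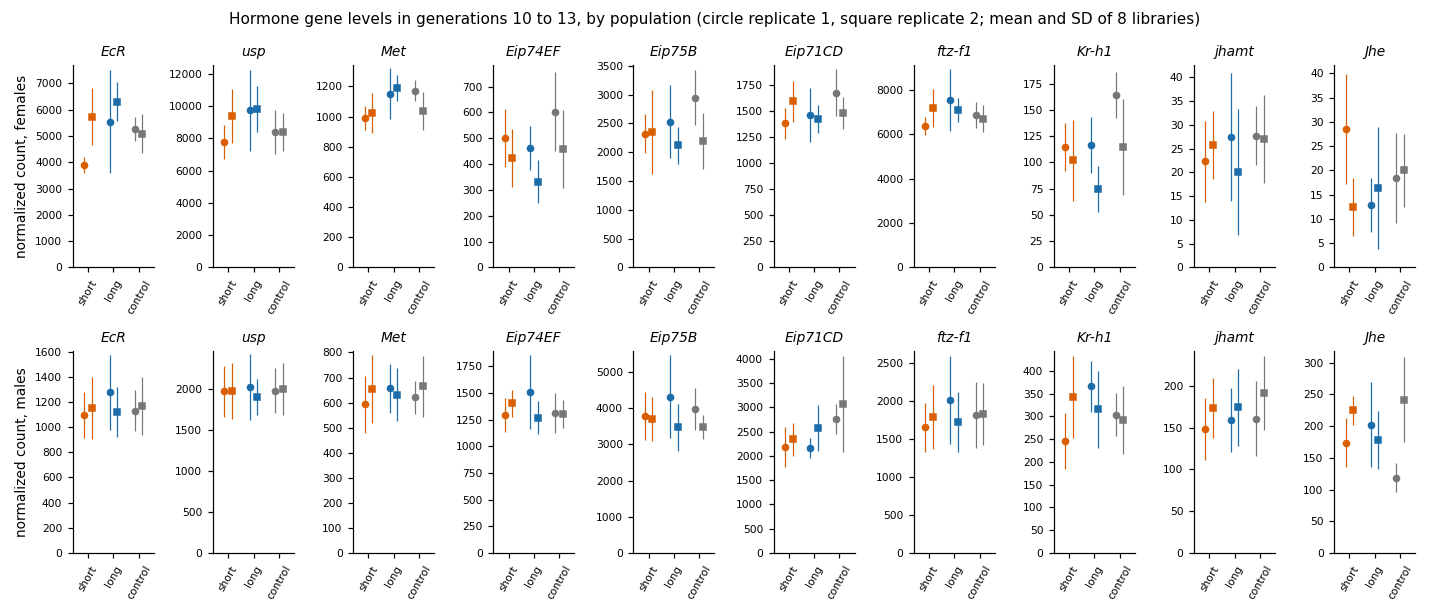
Normalized counts of each gene at generations 10 to 13 in short, long and control populations, in females and in males. Symbols are the mean of 8 libraries of a population (circle replicate 1, square replicate 2) and bars are their SD; the schemes overlap for most genes, and Eip71CD in males is lower in the 4 selected populations than in both controls.

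Of the other pathway genes, Hr4, a nuclear receptor of the ecdysone response, was called in males, higher in long than in control by a log2 difference of 3.51 (adjusted p = 0.0149) and with -3.51 for short minus long (adjusted p = 0.0149). Its late male libraries ranged over 43.1 to 75.5 and 32.3 to 108 in short, 34.7 to 2429.6 and 55.2 to 2190.2 in long and 39.4 to 93.2 and 20.1 to 85.1 in control populations. Both long populations held libraries within the range of the others, so the mean difference rests on some of their libraries. In long replicate 1 males the mean was 654 at generations 0 to 4 and 652 at generations 10 to 13. The added slope was 0.015 ± 0.079 log2 per generation there and 0.25 ± 0.090 in long replicate 2 (edgeR, SE). In short replicates 1 and 2 the male mean went from 153 and 192 to 62.2 and 58.5. Without generation 11 neither contrast was called (adjusted p = 0.572 for long minus control and 0.105 for short minus long), and leaving out single populations gave an adjusted p of 0.0422 to 0.577 for long minus control and 0.031 to 0.164 for short minus long.

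In females the members were set against the yolk level, the mean of log2 normalized counts plus 1 of Yp1, Yp2 and Yp3, which ranged over 14.4, 16.7 and 17.8 (lowest, median and highest of 156 libraries). EcR, usp and ftz-f1 were lower in libraries with more yolk transcript, and Kr-h1 and Eip74EF were higher. Over the 156 libraries EcR correlated with r = -0.41 and rho = -0.35, usp with r = -0.41 and rho = -0.32, and ftz-f1 with r = -0.45 and rho = -0.39. Kr-h1 had r = 0.37 (rho = 0.41) and Eip74EF r = 0.32 (rho = 0.34). Each of these 5 passed an adjusted permutation p under 0.001 for r, which 57.5% of 10107 genes did, 34.6% with a negative sign, and the adjusted p was 2.26e-05 for EcR, usp and ftz-f1, 4.29e-05 for Kr-h1 and 1.56e-04 for Eip74EF; for rho it was 1.81e-04 for usp and 2.77e-05 for the other 4. Met (r = -0.23, adjusted p = 0.00563), Eip71CD (r = -0.23, adjusted p = 0.00624) and Eip75B (r = 0.04, adjusted p = 0.637) did not. Of the untested enzymes, jhamt had r = 0.41 (rho = 0.32) and Jhe r = 0.56 (rho = 0.52), each with a permutation p of 1e-05 for r that is not adjusted and is the smallest 100000 permutations can give. All these permutations took the 156 libraries as exchangeable, although generations and pools of a population are not independent. Their p-values are therefore to be read beside the r between paired pools, which was 0.07 for Kr-h1.

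For EcR, usp, ftz-f1, Kr-h1, Eip74EF, jhamt and Jhe the sign of r was the same in the smaller sets of libraries that follow. Met changed sign, with r = -0.05, -0.51 and 0.06 in short, long and control females, and so did Eip75B, with 0.18, -0.21 and 0.15. Eip71CD had -0.16, -0.53 and -0.18, and ran from -0.68 to 0.07 over single populations. Without the 2 libraries farthest from the median yolk level r was -0.38 for EcR, -0.39 for usp, -0.44 for ftz-f1, 0.37 for Kr-h1, 0.33 for Eip74EF, 0.40 for jhamt and 0.53 for Jhe. Within short, long and control females r was -0.49, -0.39 and -0.25 for EcR, -0.38, -0.46 and -0.19 for usp, and 0.62, 0.60 and 0.38 for Jhe (n = 52 each). With generation means taken out, r was -0.50 for EcR, -0.67 for usp and -0.51 for ftz-f1. Between paired pools (n = 78 pairs) r was -0.44 for EcR, -0.52 for usp, -0.38 for Met, -0.35 for ftz-f1, 0.41 for Jhe, 0.37 for jhamt and 0.07 for Kr-h1. Over the 156 libraries the yolk level correlated with the mean log2 level of the eggshell genes at r = 0.73, with the female germline genes at r = -0.54, with fat body genes at r = 0.43 and with testis genes at r = -0.05. The part of these tissues in the members' r values was not tested. Fits of a yolk slope with the eggshell or the germline genes added are given below.

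**Figure D5:**
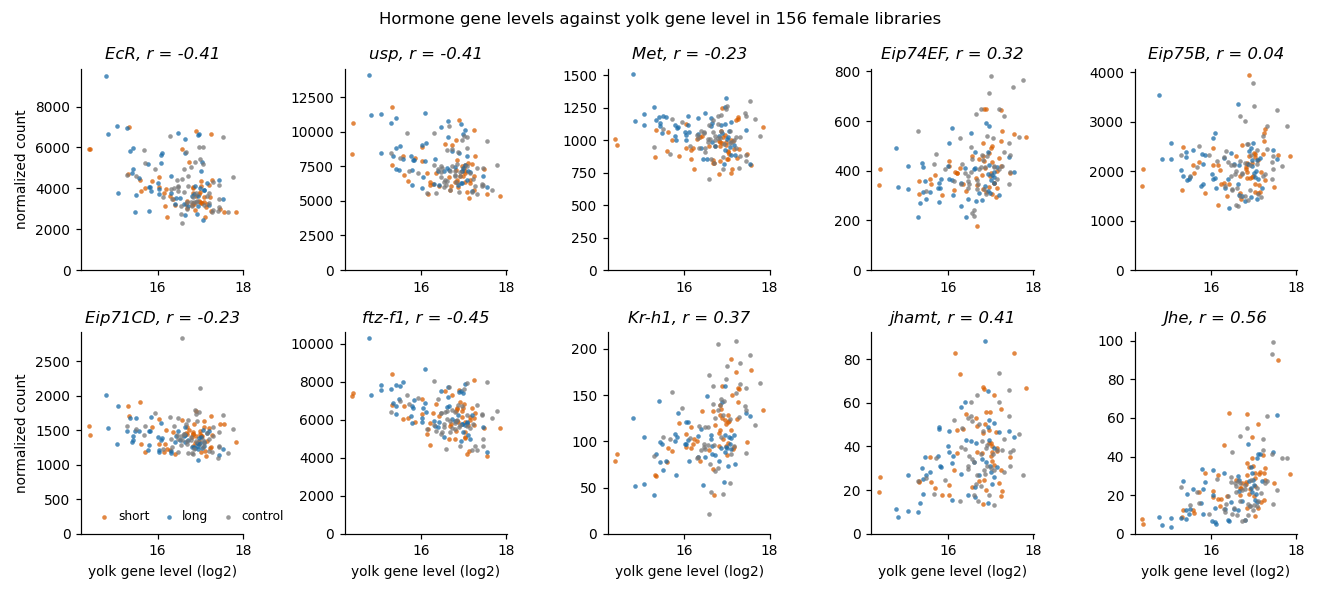
Level of each gene against the mean level of Yp1, Yp2 and Yp3 in 156 female libraries, as normalized counts (from 0) against the mean of log2 normalized counts plus 1, coloured by scheme. The title of each panel gives Pearson's r; EcR, usp and ftz-f1 slope down and Jhe, jhamt and Kr-h1 slope up.

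A slope on the yolk level was then fitted within each combination of population and generation, so that it rests on the difference between pools alone. It was called for 2 of the 8 members tested, both negative, where edgeR called 40.5% of 10107 genes, 12.9% positive and 27.6% negative. EcR had -0.20 ± 0.05 log2 per doubling of the yolk level (SE, adjusted p = 1.21e-04) and usp -0.16 ± 0.03 (adjusted p = 6.01e-06). Met (-0.12 ± 0.03, adjusted p = 0.00111) and ftz-f1 (-0.11 ± 0.03, adjusted p = 0.00269) did not pass the threshold, nor did the remaining members: Eip74EF had 0.15 ± 0.07, and Eip75B, Eip71CD and Kr-h1 lay between -0.07 and 0.07. The median slope was -0.09 over the members and -0.03 over all genes tested. The pools of long replicate 1 at generation 11 had 97929 and 334524 summed yolk counts, with EcR at 9502 and 6432, usp at 14123 and 10750, and the germline genes at 183180 and 140509, and without that pair EcR had -0.19 (adjusted p = 0.00142) and was not called. Leaving out all of long replicate 1 ended both calls (adjusted p = 0.0165 for EcR and 0.00168 for usp), EcR was not called without long replicate 2 either (adjusted p = 0.00123), adding the level of the eggshell genes to the fit left EcR at -0.22 without a call (adjusted p = 0.0022), and adding that of the germline genes left -0.09 for EcR (adjusted p = 0.0506) and -0.07 for usp (adjusted p = 0.00102). Scaling by the trimmed mean of M-values gave 1527 positive and 1953 negative calls over all genes, in place of 1305 and 2786.

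Of 38 other pathway genes 14 were called, 8 positive and 6 negative, a share no higher than that of all genes. Among the enzymes of ecdysone synthesis 3 of 6 tested were called, all positive, with a median slope of 0.54 over the 6, whereas 8 of 11 eggshell genes were called with a median of 1.85. The largest slopes among the called pathway genes were those of sad (0.99 ± 0.12, adjusted p = 8.37e-11), phm (0.90 ± 0.12) and sro (0.82 ± 0.10), which encode enzymes on the way to ecdysone, and of br (0.54 ± 0.06), an early gene of the ecdysone response. Fitted without the cutoff on low counts, Jhe had a slope of 0.69 (adjusted p = 9.89e-05) and jhamt 0.42 (adjusted p = 0.00389). The lowest raw count of Jhe in a female library was 3, so these 2 slopes rest on few reads.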

How the data were processed

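RNA was sequenced from pools of 10 whole flies with a stranded poly-A kit. The authors used STAR with release 6.07 of the fly annotation for alignment, counted uniquely mapped reads per gene with HTSeq and deposited raw counts for 17478 genes; the strand setting of the counting is not given in the sources used here. The deposited normalized counts, a signal, are the raw counts divided by 1 size factor per library (0.740 to 2.47), and 4266 genes with 1.05% of the counts are listed only as raw counts. Normalized counts were computed here for all genes with these factors. The 2 pools of a population, sex and generation differed beyond counting error (chi-square per degree of freedom at least 5.46), so errors rest on the spread between libraries; intervals from counting alone are not given.

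Tests were edgeR 4.0.16 quasi-likelihood F-tests (R 4.3.3) of the raw counts, with the deposited size factors as offsets, over genes above a normalized count of 50 in a male or 100 in a female library. P-values were adjusted by Benjamini-Hochberg over all genes tested, with thresholds of 0.001, or 0.05 for the late contrasts, where the counts of generations 10 to 13 were summed into 1 column per population. Correlations used log2 of normalized counts plus 1 and 100000 permutations, two-sided. The replicate number was checked as a pairing: at generations 10 to 13 the deviations of populations with the same number from their scheme's mean correlated at 0.20 to 0.27 in the 3 pairs of schemes of both sexes, so fits with the number as a block are given, although no label states what it marks. Pools carry the number in the sample title, and another label differs from it for 35 libraries. The scripts were tested on simulated data. DESeq2 1.42.0, limma 3.58.1, other scalings and cutoffs, and fits without single populations, pools, generation 11 or the libraries that stand apart were alternatives; the last 2 were added after seeing the data. BDGP6.54, which annotates the genome release the authors used, gave the coordinates. Lists covered 42 other hormone pathway genes and markers of yolk, eggshell, female germline, fat body, testis and accessory gland. The genes named are the 10 members, the yolk genes, at most 4 called pathway genes with the largest change per comparison, and at most 2 genes most correlated with each member; JhI-26 and Eip55E fall under the same rule. The members and lists were chosen with earlier results of these data known.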

Additional observations from a re-analysis of the deposited data

How the results depend on the processing

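No called value of a member changed sign under the alternatives run. The yolk slope was the result that moved: of 2 members called, 5 were called with population intercepts only (Eip74EF, Kr-h1 and ftz-f1 joined), 1 with the eggshell genes in the fit (EcR lost its call at a slope of -0.22, against -0.20), 0 with the germline genes in the fit and 1 without long replicate 1 at generation 11; leaving out single populations gave 0 to 4 calls, the lowest without long replicate 1 and the highest without control replicate 2, and 1 without long replicate 2. Without the libraries that stand apart, an alternative added after seeing the data, 3 were called, Met with an adjusted p of 7.22e-04 (7.78e-04, and again 3, without the long replicate 2 female pool of generation 5 as well), and without generation 11 again 2. With generation as a factor the selection trend in females called 1 member, usp (adjusted p = 4.30e-05). The cause of these changes was not tested. The generation effect called 6 to 7 of 8 members in females and 7 to 9 of 10 in males with 1 pool left out, and in control populations alone Kr-h1 and Eip71CD lost their calls in both sexes. Counts of members for sex, late contrasts and the trend in males did not move. Over all genes the selection trend was less stable, with 347 to 1633 calls in females and 430 to 1147 in males when a population was left out, 47 and 49 in females and 73 and 157 in males with 1 pool left out, and 0 in both sexes with populations as replicates in limma, against 1001 in females and 811 in males; generation as a factor gave 4024 and 1442, and leaving out generation 0 gave 621 and 439. The yolk slope had 4091 calls over all genes, 2455 with the eggshell genes in the fit, 808 with the germline genes and 942 without long replicate 1. Over all genes it had 5348 with population intercepts only, 4367 without the libraries that stand apart and 4220 without control replicate 2. The fits that called more members thus also called more genes. The generation effect had 9342 in females, 6049 without pool 2 and 5140 in controls alone, and 11934 in males and 7208 without pool 1.

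The replicate block on population number changed no call of a member: it called 0 members for the selection trend in either sex and 0 in the late contrasts. Pool number as a block left 10 members called between the sexes, but pools with the same number are not shown to be paired, since their deviations correlated between the sexes at a median of 0.0065. The pool number of 35 libraries differs between 2 of their labels, which touches the block and the fits without pool 1 or 2. DESeq2 called 50 to 395 genes in the late contrasts over the whole table, where edgeR called 0 to 2, and 0 members. Depth limits jhamt and Jhe in females most, since their counts there fall to single digits.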
